A study of Mus musculus with 6 samples.

Results

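Apolipoprotein genes were described across the libraries of mouse kidney cortex taken 1 day after surgery. The 10 genes Apoa1, Apoa2, Apoa4, Apob, Apoc1, Apoc3, Apod, Apoe, Apoh and Apom were found by their symbols among the 26971 features of the count table, and 9 of the 10 passed the filter on low counts. Apod did not pass it. The genes were chosen by symbol after their CPM in these libraries had been seen, in congested against IRI kidneys and between libraries of equal replicate number, so those differences are given as a description and no test of them is read as support. Of the 2 groups, 3 libraries came from kidneys with ischaemia-reperfusion injury (IRI, in which blood flow is stopped and then restored) together with renal congestion, titled Cong_IRI with count columns named IVCC_IRI. The other 3 came from IRI kidneys without congestion, titled CLK_IRI. All animals were male C57BL/6 mice, and the labels expand neither IVCC nor CLK and give no age. Both groups carry the ischaemic injury, so no library here shows an uninjured cortex. The labels number the libraries 1 to 3 in each group without saying that they came from separate animals, so each p-value measures only the spread between these samples.

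Apolipoproteins are the proteins of the particles that carry cholesterol, triglyceride and other lipids in blood. Some form the scaffold of a particle, others exchange between particles and steer them to receptors or enzymes, and apolipoproteins D and M are small lipid carriers of the lipocalin family. Liver and intestine make most of them, and the kidney proximal tubule makes some, such as apolipoprotein M, and takes up others from the filtrate through megalin (Lrp2) and cubilin (Cubn). In bulk cortex, fewer cells of a type and less RNA per cell cannot be told apart.

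Some properties of the libraries touch every value that follows. Total counts ranged from 10865860 to 14350425 per library, and values are CPM, counts scaled to a common library total, with TMM factors, which correct for differences in RNA composition. Replicate 1 of both groups stood apart in the summed injury genes. The summed level of 18 tubular injury genes was 67674, 19421 and 11800 CPM in congested replicates 1, 2 and 3, against 51009, 17314 and 6922 CPM in IRI replicates 1, 2 and 3. Most of that sum was osteopontin (Spp1). Differences between the groups also followed transcript length. Among 883 tested genes whose longest transcript has 500 to 1100 bases, the median log2 difference of congested minus IRI was -0.64, -0.66 and 0.15 within replicate numbers 1, 2 and 3. Among 319 genes with transcripts over 10000 bases it was 0.65, 0.75 and -0.16. The medians of all 14274 tested genes were 0.00, 0.01 and -0.00. Most apolipoprotein transcripts are short, with 518 bases for Apoa2, 532 for Apoc1, 709 for Apoc3, 1013 for Apom, 1035 for Apoa1, 1190 for Apoh, 1408 for Apoe and 1815 for Apoa4, while that of Apob has 13934. For the tested apolipoprotein genes, the part of transcript length in the differences below is given as values with the length and GC trend of each library removed. Values of the partner genes and cell markers further on are given as measured, and the part of length in them was not tested.

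Per kilobase of the longest transcript, Apoe had the highest level of the 10 genes. It encodes the ligand that brings remnant particles to receptors of the LDL receptor family, and its median over the 6 libraries was 93.3 CPM per kilobase. Apoc3 followed at 47.4, Apom at 37.8 and Apob at 18.4 CPM per kilobase. Lower medians belonged to Apoa4 at 10.5, Apoa2 at 8.89 and Apoh at 8.33 CPM per kilobase, and the lowest to Apoa1 at 2.50, Apoc1 at 2.24 and Apod at 0.192. Many neighbours in this order overlapped over the libraries. Apoc3 per kilobase averaged 32.0 ± 31.8 CPM in congested IRI and 62.7 ± 32.5 CPM in IRI kidneys (SD, n = 3 each), a spread that reaches across the means of Apom, at 32.9 ± 8.42 CPM per kilobase in congested IRI and 49.3 ± 17.7 in IRI kidneys. With the union of all annotated exons as the length, the Apoc3 median was 33.1 and the Apom median 37.8 CPM per kilobase, which turns their order round.

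**Figure D1:**
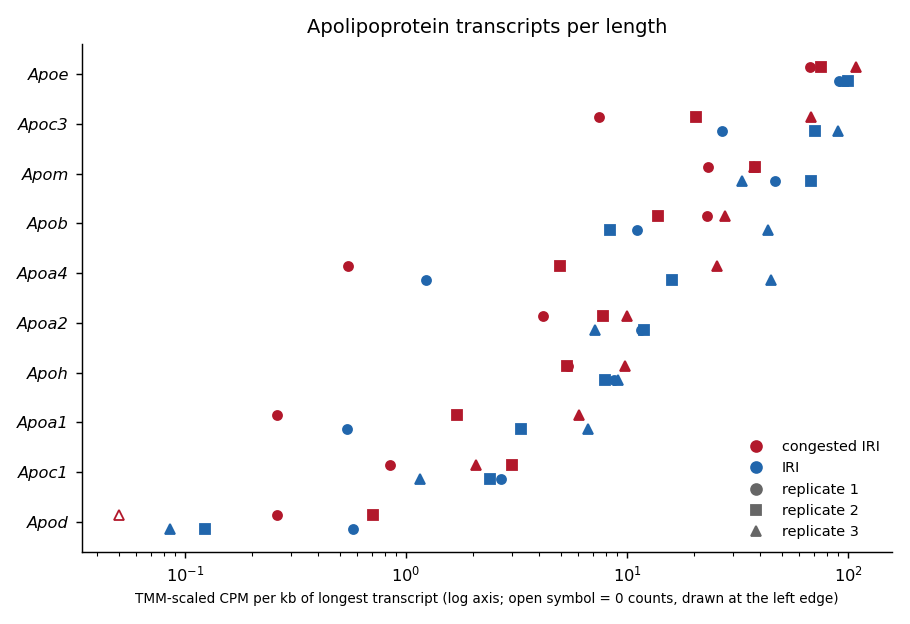
Level of each apolipoprotein gene in TMM-scaled CPM per kilobase of its longest annotated transcript (log axis), one point per library, with congested IRI libraries drawn above IRI libraries, a symbol for the replicate number and an open symbol for 0 counts. Apoe has the highest median at 93.3, and of the 9 tested genes Apoa4, Apoa1 and Apoc3 spread the widest over the 6 libraries.

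Of the 9 tested genes, the 3 listed genes of the apolipoprotein cluster on chromosome 9 were the ones below their IRI counterpart in all 3 replicate numbers. Apoa1 encodes the main protein of high-density lipoprotein, Apoc3 encodes an inhibitor of lipoprotein lipase and of remnant uptake, and Apoa4 encodes an apolipoprotein of chylomicrons and high-density lipoprotein. On GRCm38 they lie close together, with Apoa1 on the plus strand at chr9:46228580-46230466, Apoc3 on the minus strand at chr9:46232933-46235636 and Apoa4 on the plus strand at chr9:46240696-46243459. The gaps between them are 2466 and 5059 bases.

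Apoc3 had 5.29, 14.6 and 48.1 CPM in congested replicates 1, 2 and 3, against 19.1, 50.1 and 64.1 CPM in IRI replicates 1, 2 and 3. Each congested library was below the IRI library of its number, but the groups overlapped, since congested replicate 3 lay above IRI replicate 1. The log2 differences within numbers were -1.82, -1.77 and -0.41, and the fit over all genes gave a log2 fold change of -0.97 (SE 0.76) without the replicate number and -1.32 (SE 0.30) with it as a block. Leaving out 1 library moved the value without the block to -2.15 when congested replicate 3 was dropped, to -0.50 when congested replicate 1 was and to -0.60 when IRI replicate 3 was. With the length and GC trend removed, the differences within numbers were -1.18, -1.05 and -0.60.

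Apoa4 had 0.987, 9.01 and 46.3 CPM in congested replicates 1, 2 and 3, against 2.23, 28.9 and 81.6 CPM in IRI replicates 1, 2 and 3. The spread between numbers far exceeded the differences within them: congested replicate 3 lay above IRI replicates 1 and 2. Within numbers the log2 differences were -1.05, -1.67 and -0.81, or -0.72, -1.27 and -0.98 with the length and GC trend removed. Its log2 fold change was -0.998 (SE 1.34) without the block and -1.22 (SE 0.24) with it. Without IRI replicate 3 the value without the block became 0.28, and leaving out congested replicate 3 made it -2.89, so single libraries set it. Apoa4 overlaps the opposite-strand genes Gm10680 and Gm47528 by 632 and 634 exonic bases. The sources used here do not give the strand setting of the counting, which leaves its counts uncertain to that extent.

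Apoa1 was the least abundant of the cluster, with counts of 3, 24 and 80 in congested replicates and 7, 40 and 78 in IRI replicates. Its levels were 0.269, 1.76 and 6.28 CPM in congested replicates 1, 2 and 3, and 0.557, 3.42 and 6.89 CPM in IRI replicates 1, 2 and 3. The groups overlapped almost entirely, and the differences within numbers were -0.73, -0.90 and -0.13 on the log2 scale. In number 3 the congested count of 80 exceeded the IRI count of 78, so the lower CPM there came from library scaling. With the length and GC trend removed they were -0.19, -0.28 and -0.31. The log2 fold change was -0.37 (SE 1.06) without the block and -0.57 (SE 0.34) with it. Leaving out IRI replicate 3 gave 0.49, leaving out congested replicate 1 gave 0.16 and leaving out congested replicate 3 gave -1.79.

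No apolipoprotein gene separated the groups. Of the 9 tested genes, 0 had groups that did not overlap, against 6.49% of all tested genes in either direction and 3.07% with congestion lower. Being lower in all 3 replicate numbers, as the 3 chromosome 9 genes were, held for 13.1% of all tested genes. The quasi-likelihood test of edgeR with Benjamini-Hochberg adjustment called 0 of the 9 genes at an adjusted p under 0.05, and 0% of all 14274 genes, without the block and with it. At an unadjusted p under 0.05 the edgeR fit held 285 genes, or 2% of all tested, without the block and 1008, or 7.06%, with it. Apoa4 and Apoc3 were among those 1008, in a direction, congestion lower, that held 2.98% of all tested genes. DESeq2 without the block called 0 genes. DESeq2 with the block called 10 genes, or 0.0729% of the 13720 it gave an adjusted p, and Apoc3 was one of them at an adjusted p of 0.0395 and a log2 fold change of -1.34 (SE 0.32), while Apoa4 stood at 0.0651. The genes were listed with this contrast known, and nothing is read from these calls.

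Promoter sequence from RefSeq (GRCm38.p6), covering 250 bases before to 50 bases after the start that RefSeq gives, was held for 8 of the 10 genes, all but Apoc1 and Apoc3. The windows of Apoa1 and Apoa4 are shown because these 2 genes of the cluster had the same order of levels over the 6 libraries, and that of Apob because its levels ran another way. Capitals mark matches to the motifs searched on both strands, which were the direct repeat of AGGTCA with 1 base between its copies, bound by nuclear receptors such as HNF4A and PPARA, the HNF4 core CAAAGTNCA and the TATA box TATAAA. These starts differ from the GENCODE gene starts above, lying at 46228630 for Apoa1, 46240844 for Apoa4 and 7977677 for Apob. The windows are Apoa1 on the plus strand at chr9:46228380-46228679, Apoa4 on the plus strand at chr9:46240594-46240893 and Apob on the plus strand at chr12:7977427-7977726.
Apoa1: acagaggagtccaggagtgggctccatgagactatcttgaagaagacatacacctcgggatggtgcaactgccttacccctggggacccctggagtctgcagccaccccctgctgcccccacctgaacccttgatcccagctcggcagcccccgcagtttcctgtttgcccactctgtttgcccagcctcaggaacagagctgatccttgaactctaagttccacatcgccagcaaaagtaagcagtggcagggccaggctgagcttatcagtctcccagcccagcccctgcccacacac
Apoa4: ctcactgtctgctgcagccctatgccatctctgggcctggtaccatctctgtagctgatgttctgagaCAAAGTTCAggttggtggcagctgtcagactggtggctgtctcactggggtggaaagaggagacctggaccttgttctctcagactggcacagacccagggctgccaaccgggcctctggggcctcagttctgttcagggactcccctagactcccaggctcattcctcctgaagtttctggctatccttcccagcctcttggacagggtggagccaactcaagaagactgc
Apob: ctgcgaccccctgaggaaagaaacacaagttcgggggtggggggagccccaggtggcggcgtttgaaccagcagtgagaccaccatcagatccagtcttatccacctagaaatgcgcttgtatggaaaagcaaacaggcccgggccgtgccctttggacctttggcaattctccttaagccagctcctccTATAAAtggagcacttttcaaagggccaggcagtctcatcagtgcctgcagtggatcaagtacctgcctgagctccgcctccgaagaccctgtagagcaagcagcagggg
The Apoa4 window held the HNF4 core as CAAAGTTCA, beginning at position -182 from the RefSeq start and -34 from the GENCODE start of 46240696, a motif found in 1.41% of the 32851 promoter windows of the table. The Apob window held TATAAA beginning at -60 from the RefSeq start and -31 from the GENCODE start of 7977648, found in 13.6% of all windows, and the Apoa1 window held none of these motifs. The direct repeat was found in none of the 8 genes' windows and in 0.0396% of all windows. A match describes letters and no match says only that those letters are not in the window.

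The levels of the chromosome 9 genes differed between replicate numbers far more than between groups. The comparison asks whether libraries of numbers 1, 2 and 3 differ with the group held fixed. It is another contrast than the one the genes were chosen by, but their CPM in these same libraries had been seen, so its p-values describe the spread over the libraries and are not independent support. The edgeR quasi-likelihood F test called Apoa4, Apoa1 and Apoc3 at adjusted p-values of 0.00137, 0.00735 and 0.0188. They were 3 of the 9 tested apolipoprotein genes, against 1144 genes or 8.01% of all tested. Number 3 exceeded number 1 by a log2 difference of 5.38 (SE 0.34) for Apoa4, 4.0 (SE 0.46) for Apoa1 and 2.48 (SE 0.38) for Apoc3. Number 2 lay between them, at 3.47 (SE 0.34), 2.59 (SE 0.49) and 1.40 (SE 0.37) above number 1. With the length and GC trend removed the adjusted p-values of the edgeR test were 0.000174 for Apoa4, 0.00124 for Apoa1 and 0.000570 for Apoc3. The highest library exceeded the lowest 82.6-fold for Apoa4, 25.6-fold for Apoa1 and 12.1-fold for Apoc3. For comparison the same ratio was 1.61 for Apoe and 1.82 for Apoh.

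The summed injury genes moved the other way over the same libraries. The summed level of Apoa1, Apoc3 and Apoa4 was 6.55, 25.3 and 100.7 CPM in congested replicates 1, 2 and 3, against 21.9, 82.5 and 152.6 CPM in IRI replicates 1, 2 and 3. Its order over the 6 libraries was the exact opposite of the order of the summed injury genes. Without Spp1, that injury sum was 8365, 4088 and 3002 CPM in congested replicates and 10739, 3938 and 2131 CPM in IRI replicates, with IRI replicate 1 highest. Not every injury gene followed the sum. Among congested libraries, Sprr1a and Krt19 were highest in replicate 2, at 121 and 64.9 CPM. The log2 fold changes of the injury genes Vcam1 and Spp1 were 0.42 (SE 0.57) and 0.51 (SE 0.91). Of the 18 injury genes, 15 were called for replicate number by the edgeR F test, against 8.01% of all tested genes, and their part in the apolipoprotein values was not tested.

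**Figure D2:**
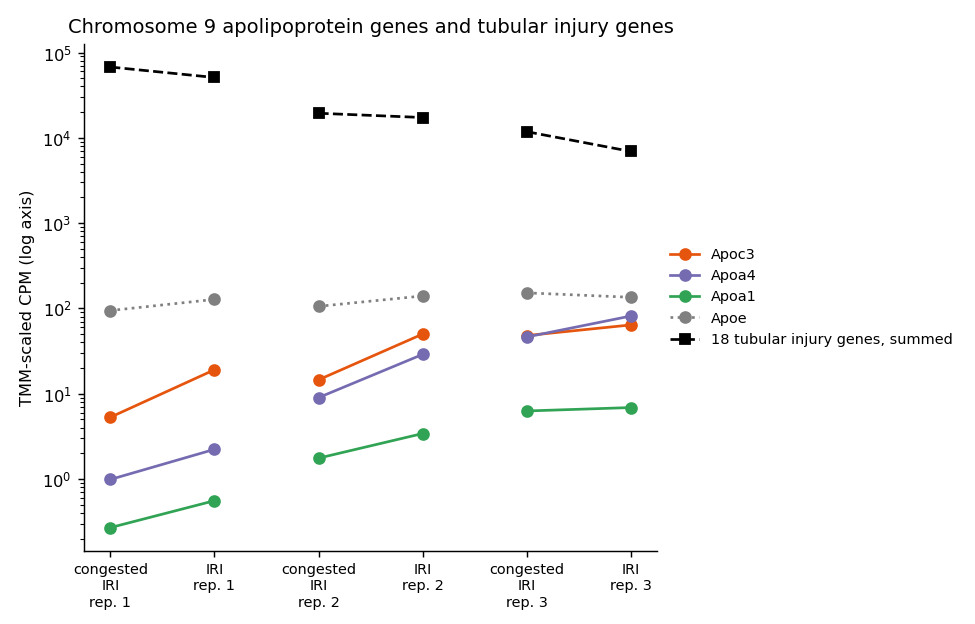
TMM-scaled CPM (log axis) of Apoc3, Apoa4, Apoa1 and Apoe and of 18 tubular injury genes summed, in each library. Lines join the congested IRI library to the IRI library of the same number. The 3 chromosome 9 genes are lowest in replicate 1 of both groups, where the injury sum is highest at 67674 and 51009 CPM, while Apoe stays between 94.5 and 152 CPM.

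Apoa4 and Apoc3 did not keep a fixed ratio between replicate numbers. Apoa4 made up 15.7% (exact binomial 95% interval 8.11 to 26.4), 38.2% (32.9 to 43.7) and 49.0% (46.2 to 51.9) of the Apoa4 and Apoc3 counts in congested replicates 1, 2 and 3. In IRI replicates 1, 2 and 3 the share was 10.4% (7.06 to 14.7), 36.6% (33.5 to 39.8) and 56.0% (53.6 to 58.4). These intervals cover counting error only. Number 1 lay below numbers 2 and 3 beyond these intervals in both groups, while the intervals of the groups overlapped within numbers 1 and 2 and did not within number 3. For the scarcer Apoa1, the share of the Apoa1 and Apoa4 counts had intervals of 4.66 to 50.8, 10.7 to 23.3 and 9.58 to 14.6% in congested replicates 1, 2 and 3, against 8.44 to 36.9, 7.65 to 14.1 and 6.20 to 9.62% in IRI replicates 1, 2 and 3, which overlapped across the numbers of each group. Its share of the Apoa1 and Apoc3 counts had intervals of 1.01 to 13.5, 7.02 to 15.6 and 9.26 to 14.2% in congested replicates, which overlapped, against 1.15 to 5.75, 4.60 to 8.59 and 7.74 to 11.96% in IRI replicates, where numbers 1 and 3 did not.

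Apob differed from the others in its size and its direction. It encodes the scaffold protein of chylomicrons and of very low and low-density lipoprotein, and it lies on the plus strand at chr12:7977648-8016835. Its levels were 321, 193 and 385 CPM in congested replicates 1, 2 and 3, against 155, 117 and 604 CPM in IRI replicates 1, 2 and 3. Within numbers 1 and 2 the congested library was higher, and within number 3 it was lower, and IRI replicate 3 was the highest of all. The means were 299.7 ± 98.2 CPM in congested IRI and 291.9 ± 271.1 CPM in IRI kidneys (SD, n = 3 each), and the log2 fold change was 0.04 (SE 0.62). It moved to 1.15 without IRI replicate 3 and to -0.34 without IRI replicate 2. With the block it was 0.38 (SE 0.33), and with the block and the length and GC trend removed it was -0.06 (SE 0.17). Within numbers the log2 differences were 1.05, 0.72 and -0.65, the signs of the medians of genes with transcripts over 10000 bases, and with the trend removed they were 0.35, -0.09 and -0.44. For replicate number the edgeR F test gave Apob an adjusted p of 0.0591, with number 3 above number 2 by 1.76 (SE 0.40) on the log2 scale. Apob held 70.5%, 51.3% and 55.5% of the counts of the 10 listed genes in congested replicates 1, 2 and 3, against 41.8%, 27.5% and 64.2% in IRI replicates 1, 2 and 3, and so it weighs heavily in any sum over them.

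Apoe was the steadiest of the 9 tested genes. It had 94.5, 106 and 152 CPM in congested replicates 1, 2 and 3, against 128, 140.0 and 135 CPM in IRI replicates 1, 2 and 3. The 3 IRI libraries lay inside the range of the congested ones. The means were 117.5 ± 30.6 CPM in congested IRI and 134.2 ± 6.26 CPM in IRI kidneys (SD, n = 3 each), a log2 fold change of -0.19 (SE 0.24), which moved to -0.06 without congested replicate 1 and -0.42 without congested replicate 3. Within numbers it was -0.43, -0.40 and 0.17, close to 0 with the length and GC trend removed, at -0.01, 0.11 and 0.01.

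Apom, Apoh and Apoa2 shared with Apoe a congested value below the IRI value in numbers 1 and 2 and above it in number 3. Apom encodes the lipocalin that carries sphingosine-1-phosphate on high-density lipoprotein, and it lies on the minus strand at chr17:35128997-35132050. It had 23.5, 38.4 and 38.1 CPM in congested replicates 1, 2 and 3, against 47.2, 69.1 and 33.5 CPM in IRI replicates 1, 2 and 3. The groups overlapped through IRI replicate 3, and the log2 fold change was -0.58 (SE 0.32), or -0.27 without IRI replicate 2 and -0.38 without congested replicate 1. Its differences within numbers were -0.999, -0.84 and 0.19, or -0.43, -0.24 and 0.02 with the length and GC trend removed.

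Apoh encodes beta-2-glycoprotein I, a plasma protein that binds anionic phospholipids, at chr11:108343354-108414396 on the plus strand. Its levels were 6.46, 6.37 and 11.6 CPM in congested replicates 1, 2 and 3, against 10.3, 9.48 and 10.8 CPM in IRI replicates 1, 2 and 3. Congested replicates 1 and 2 were the lowest libraries and congested replicate 3 the highest. The log2 fold change was -0.32 (SE 0.30), and dropping congested replicate 1, 2 or 3 gave -0.18, -0.17 or -0.67. The differences within numbers were -0.66, -0.56 and 0.11, or -0.16, -0.10 and 0.02 with the length and GC trend removed. Apoh shares 30 exonic bases with Prkca on the opposite strand.

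Apoa2 encodes another structural protein of high-density lipoprotein, at chr1:171225054-171226379 on the plus strand. Counts were 24, 55 and 66 in congested replicates and 75, 72 and 42 in IRI replicates, which gave 2.15, 4.03 and 5.18 CPM in congested replicates 1, 2 and 3, against 5.97, 6.15 and 3.71 CPM in IRI replicates 1, 2 and 3. The groups overlapped, and the log2 fold change was -0.47 (SE 0.40), or -0.08 (SE 0.28) with the length and GC trend removed and the block. It was -0.20 without congested replicate 1 and -0.76 without congested replicate 3. Differences within numbers of -1.40, -0.59 and 0.46 became -0.71, 0.15 and 0.30 with the trend removed.

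Apoc1 and Apod had few reads. Apoc1, which encodes a small apolipoprotein that exchanges between particles, lies on the minus strand at chr7:19689481-19692660, 3448 bases from Apoe at chr7:19696109-19699188 on the same strand. Its counts were 5, 22 and 14 in congested replicates 1, 2 and 3, against 18, 15 and 7 in IRI replicates 1, 2 and 3, a log2 fold change of -0.07 (SE 0.56). Congested and IRI libraries overlapped fully, and the direction within numbers was mixed at -1.38, 0.30 and 0.69. With the length and GC trend removed those differences were -0.69, 1.07 and 0.50, and the log2 fold change turned to 0.47 (SE 0.54), or 0.37 (SE 0.48) with the block. Without congested replicate 1 it was 0.28 and without congested replicate 2 it was -0.51. Apod encodes a lipocalin that binds small lipids such as arachidonic acid, at chr16:31296192-31314808 on the minus strand. It had counts of 6, 20 and 0 in congested replicates 1, 2 and 3, against 15, 3 and 2 in IRI replicates 1, 2 and 3. A count of 0 in congested replicate 3 allows up to 0.235 CPM. Apod was not tested for a difference. It was highest in congested replicate 2, the library that also had the highest levels of the adipocyte genes Cfd and Adipoq. IRI replicate 1, with the next highest Apod, had 0 CPM of both. Other adipocyte genes ran otherwise, with Fabp4 at 101.9 CPM in IRI replicate 1 and 101.0 CPM in congested replicate 2. The adipocyte markers listed below, summed without Pck1, were highest in congested replicate 2 at 167 CPM. IRI replicate 1 came next at 128 CPM.

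**Figure D3:**
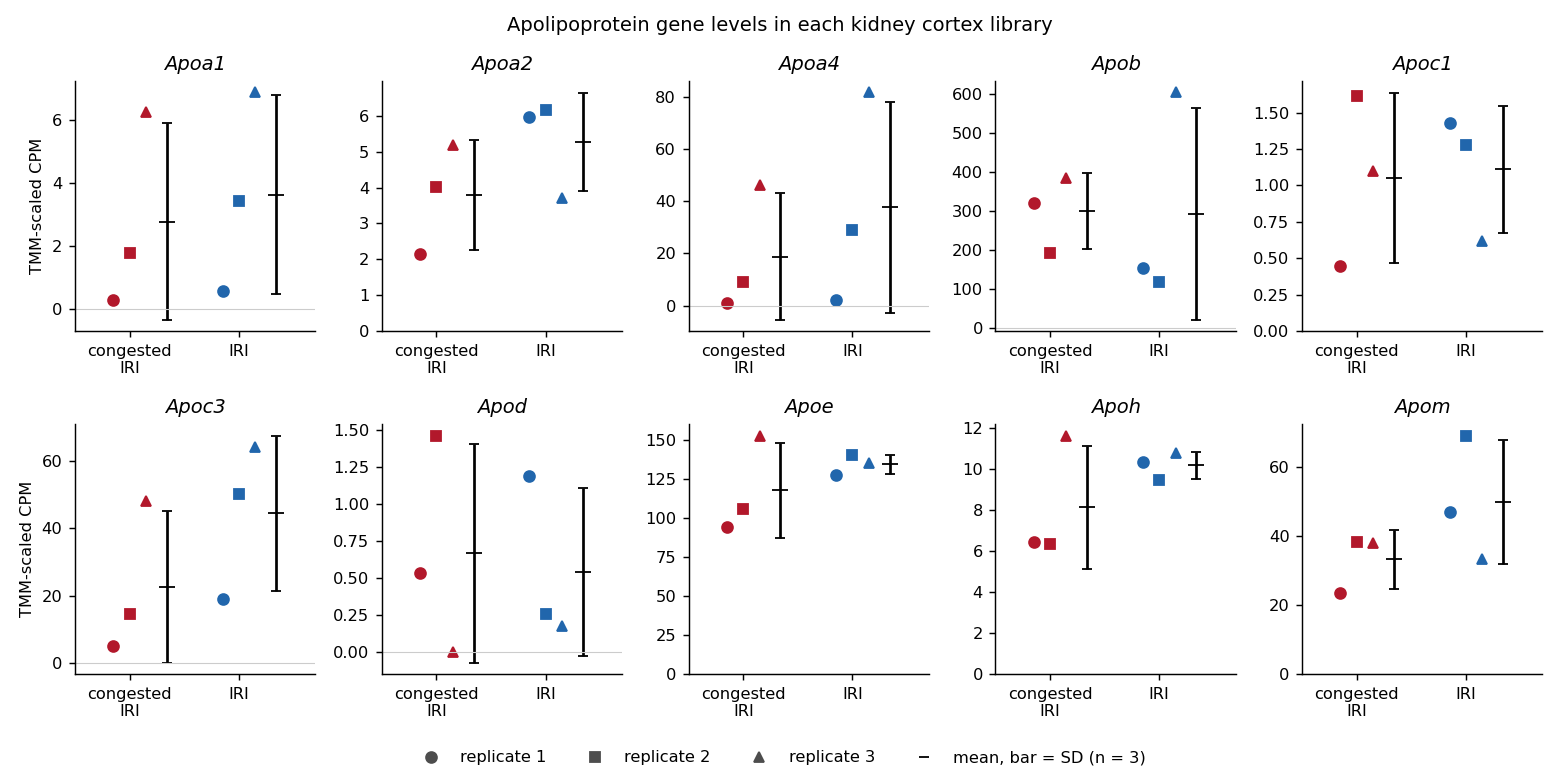
TMM-scaled CPM of each apolipoprotein gene in its own panel, with congested IRI libraries on the left and IRI libraries on the right. Points are single libraries with a symbol for the replicate number, and the tick and bar beside them are the mean and SD (n = 3). The groups overlap in every panel, and replicate 3 is the highest library of both groups for Apoa1, Apoa4, Apob, Apoc3 and Apoh.

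Taking the 9 tested genes together, 8 had a log2 fold change below 0, with a median of -0.37, against 50.4% of all genes below 0 and a median of -0.00. With the replicate block the count was also 8. Within numbers 1, 2 and 3, the genes below 0 were 8, 7 and 4 of 9, against 83.9%, 87.3% and 29.8% of genes with transcripts of 500 to 1100 bases, a class that holds 5 of the 10 listed genes, and 49.7%, 49.5% and 50.3% of all tested genes. With the length and GC trend removed 6 of the 9 were below 0, with a median of -0.13, and with the block as well 7 of the 9, with a median of -0.09. Without IRI replicate 3 the count was also 6, and without congested replicate 3 it was 9.

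**Figure D4:**
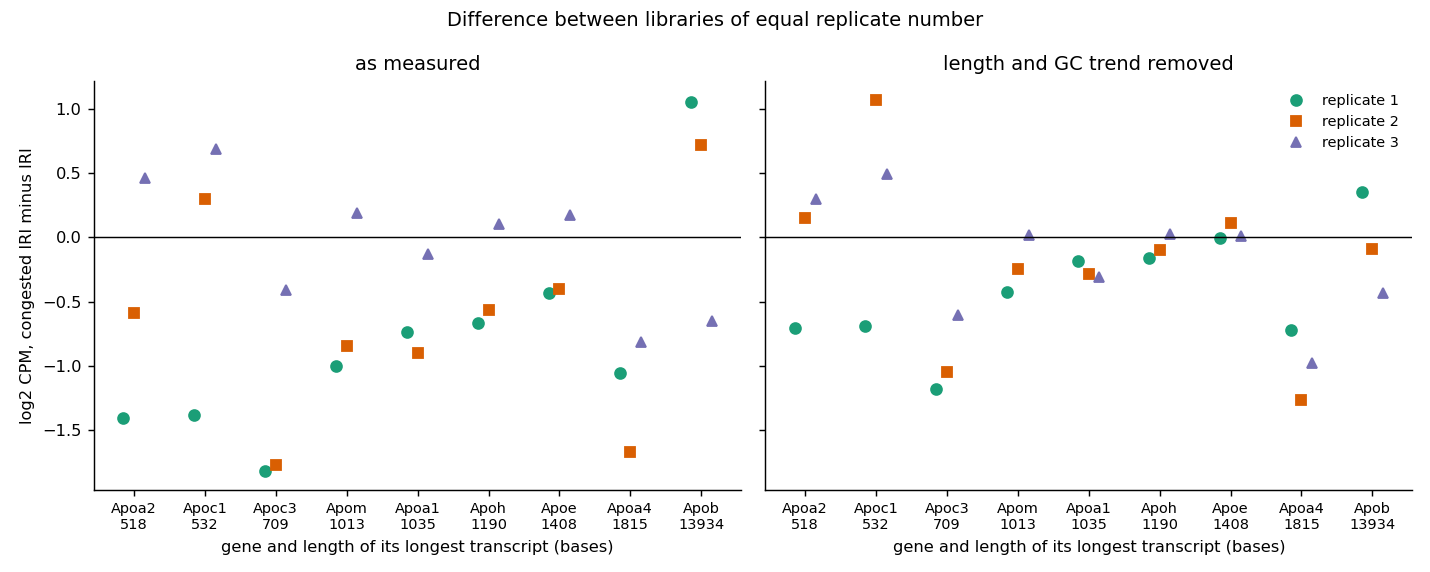
Log2 difference of congested minus IRI within replicate numbers 1, 2 and 3 for each tested apolipoprotein gene, ordered by the length of its longest transcript in bases, as measured on the left and with the length and GC trend of each library removed on the right. Apoc3, Apoa4 and Apoa1 lie below 0 in all 3 numbers in both panels, while Apob, with 13934 bases, lies above 0 in numbers 1 and 2 on the left and at 0.35 and -0.09 on the right.

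The partners of these genes gave 0 calls for congested against IRI kidneys with the edgeR test at an adjusted p under 0.05. Of the genes in all the lists below, Msr1 alone had an unadjusted p under 0.05 in that fit, at 0.0466. Of 17 other apolipoprotein and serum amyloid genes listed, 15 were in the table and 3 were tested, Saa1, Saa4 and Clu, with 1 of the 3 above 0. Saa1, the acute-phase apolipoprotein of high-density lipoprotein, had 4.94, 3.37 and 2.35 CPM in congested replicates 1, 2 and 3, against 13.4, 5.21 and 2.65 CPM in IRI replicates 1, 2 and 3, lower in all 3 numbers, with a log2 fold change of -1.003 (SE 0.60). Saa1 had a count of 30 in replicate 3 of both groups, so its lower CPM there came from library scaling. The log2 fold change of Saa4 was 0.19 (SE 0.99).

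Among 20 lipoprotein receptor genes, 19 were tested and 15 lay above 0, with a median log2 fold change of 0.21 against -0.00 over all genes. The scavenger receptor Msr1 of macrophages had 20.7, 3.22 and 1.18 CPM in congested replicates 1, 2 and 3, against 2.07, 1.88 and 0.618 CPM in IRI replicates 1, 2 and 3, with a log2 fold change of 2.44 (SE 1.03). Congested replicate 1 stood far above the rest. Amn, the membrane anchor of cubilin, had a log2 fold change of -0.44 (SE 0.29). For replicate number, 6 of the 19 were called by the edgeR F test, against 8.01% of all tested genes.

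Of 28 genes for lipoprotein assembly and remodelling, 25 were tested and 11 lay above 0, with a median of -0.11, and 5 were called for replicate number, against the same 8.01%. Tm6sf2, which takes part in loading lipid onto very low-density lipoprotein, had a log2 fold change of -0.51 (SE 0.31), and Angptl6 one of -0.56 (SE 0.46). Of 39 transcription factor genes known to act on apolipoprotein genes, 34 were tested and 21 lay above 0, with a median of 0.08, and 4 were called for replicate number, again against 8.01%. Ppara, the fatty acid-sensing nuclear receptor, had 57.9, 49.6 and 51.2 CPM in congested replicates 1, 2 and 3, against 21.6, 19.1 and 55.1 CPM in IRI replicates 1, 2 and 3. It was thus higher with congestion in numbers 1 and 2 and lower in number 3, with a log2 fold change of 0.73 (SE 0.40). The log2 fold change of Usf1 was -0.34 (SE 0.21).

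Markers of the cells that could hold these transcripts were read beside them. The 25 proximal tubule markers were all tested, 8 of them above 0, with a median log2 fold change of -0.20. Their summed level was 35919, 41328 and 43917 CPM in congested replicates 1, 2 and 3, against 66274, 61375 and 46728 CPM in IRI replicates 1, 2 and 3, lower in every congested library. Much of that was Kap, an androgen-regulated gene of the tubule, and without it the sums were 12113, 24134 and 23224 CPM in congested replicates and 15568, 25302 and 25029 CPM in IRI replicates. Slc5a12, a lactate transporter gene of the proximal tubule, had 142, 274 and 235 CPM in congested replicates 1, 2 and 3, against 52.3, 114 and 211 CPM in IRI replicates 1, 2 and 3, higher in all 3 numbers. Its log2 fold change was 0.79 (SE 0.50), against -0.81 (SE 0.38) for Kap and -0.31 (SE 0.35) for the fatty acid transport gene Slc27a2. Slc5a2 was also higher in all 3 numbers, while Kap, Slc27a2, Acsm2, Keg1, Cyp2e1, Cyp7b1 and Slc7a13 were lower in all 3. Cyp7b1 had 16.2, 57.0 and 123 CPM in congested replicates 1, 2 and 3, against 29.4, 96.7 and 231 CPM in IRI replicates 1, 2 and 3. Like Apoa1, Apoa4 and Apoc3, Cyp7b1 and Slc7a13 rose at each step from number 1 to number 3 in both groups. So did Cubn, Acsm2, Acsm3, Slc7a12, Pdzk1, Slc27a2 and Hnf4a. The other proximal tubule markers did not, and Kap fell from 50706 to 36074 and 21699 CPM in IRI replicates 1, 2 and 3. For replicate number 15 of these 25 markers were called by the edgeR F test, against 8.01% of all tested genes, and their part in the apolipoprotein values was not tested.

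Of 24 hepatocyte markers, 22 were in the table and 11 were tested, several of which the kidney also expresses, such as Cyp2e1. The summed level ranged from 1449 to 2481 CPM in congested and from 1598 to 2900 CPM in IRI libraries, most of it Cyp2e1 and fibrinogen chains such as Fgg in the highest libraries, and the 11 untested markers lay between 0 and 1.35 CPM. Albumin (Alb), a defining hepatocyte gene, had 19.9, 3.88 and 4.79 CPM in congested replicates 1, 2 and 3, against 25.3, 4.95 and 3.80 CPM in IRI replicates 1, 2 and 3. The tested markers did not run one way. Alb, Fga, Fgb, Fgg and Trf were highest in replicate 1 of both groups. Ttr, Serpina1a, Serpina1b and Cyp2e1 were lowest there, as the chromosome 9 apolipoprotein genes were, and Itih1 and Itih3 did neither in both groups. Among the untested markers, Ahsg and Mup3 had at most 1 count in any library. Serpina1a had 5.29, 31.8 and 98.3 CPM in congested replicates 1, 2 and 3, against 19.2, 63.4 and 131 CPM in IRI replicates 1, 2 and 3, but its near-identical copies make these counts uncertain. Ttr had 23.1, 105 and 115 CPM in congested replicates 1, 2 and 3, against 43.3, 222 and 122 CPM in IRI replicates 1, 2 and 3. Its log2 fold change was -0.67 (SE 0.70). Of 10 enterocyte markers, 8 were in the table and 2 were tested, Fabp1 at -0.61 (SE 0.69) and Vil1 at 0.04 (SE 0.26) on the log2 scale. Without Vil1, a brush-border gene of kidney as well, the summed enterocyte markers ranged from 3.69 to 11.9 CPM in congested and from 2.91 to 20.3 CPM in IRI libraries.

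Macrophages, which make Apoe in many tissues, were read from 16 markers, of which 14 were tested and 12 lay above 0, with a median log2 fold change of 0.55. Their summed level ranged from 174 to 364 CPM in congested and from 136 to 191 CPM in IRI libraries. Lyz2 had 197, 25.6 and 14.2 CPM in congested replicates 1, 2 and 3, against 42.0, 14.5 and 11.1 CPM in IRI replicates 1, 2 and 3. Congested replicate 1, with the highest Lyz2, had the lowest Apoe. Other markers had other orders. Csf1r and Mertk were highest in replicate 3 of both groups, and C1qa and C1qb were highest in IRI replicate 2. Gpnmb and Fcgr1 had log2 fold changes of 1.65 (SE 0.72) and 1.63 (SE 0.71), both highest in congested replicate 1. Mertk, among the most abundant of these markers, had a log2 fold change of 0.18 (SE 0.43).

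Of 12 fibroblast markers 11 were tested and 9 lay above 0, with a median of 0.19 and summed levels of 249 to 613 CPM in congested and 237 to 517 CPM in IRI libraries. The log2 fold changes of Pdgfrb, Col1a2 and Col3a1 were 0.33 (SE 0.29), 0.33 (SE 0.47) and 0.28 (SE 0.51). Of 12 adipocyte markers 5 were tested and 4 lay above 0, among them Cidec at 0.56 (SE 0.68), Lipe at 0.13 (SE 0.24) and Fabp4 at 0.07 (SE 0.29) on the log2 scale, and without Pck1, which the proximal tubule also expresses, they summed to 85.4 to 167 CPM in congested and 74.1 to 128 CPM in IRI libraries. Congested replicate 2 stood apart in untested adipocyte markers. There Cfd had 25.2 CPM, against at most 2.59 CPM in any other library, and Adipoq had 8.13 CPM, against at most 0.942 CPM elsewhere. Plin1 and Retn, at 3.73 and 3.37 CPM, were also highest in that library. The part of these cell types in the apolipoprotein values was not tested.

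The genes most like each apolipoprotein gene were found by the root mean square difference between log2 CPM centred on each gene, over the 6 libraries and among 10970 genes averaging 5 CPM or more. For Apoa1 they were the transporter genes Slc22a13 at 0.185 and Slc22a19 at 0.244 and Serpina1d at 0.254. For Apoa4 they were Serpina1b at 0.350, Mep1b at 0.484 and Ppp1r1b at 0.566, and for Apoc3 the water channel gene Aqp2 at 0.335, Slc22a7 at 0.354 and Serpina1f at 0.420. The Serpina1 genes have near-identical copies and their counts are uncertain. Apob was nearest to Hecw2 at 0.225, Ednrb at 0.285 and Ugt1a10 at 0.353. Genes that vary little have near neighbours by this measure, as Apoe had in Zswim9 at 0.0562, Acp6 at 0.0617 and Retsat at 0.0669, and Apom in Csrp2 at 0.0618, Vkorc1 at 0.0912 and Dhrs4 at 0.1003. For Apoh the nearest were Ecm1 at 0.0890, Gm5617 at 0.117 and Serpine2 at 0.118. For Apoa2 they included Gstk1 at 0.123 and Tmem139 at 0.130, and for Apoc1 Rpa2 at 0.188, Lig1 at 0.224 and Ung at 0.232. Among the apolipoprotein genes themselves, Apoe and Apoh were 0.147 apart and Apoa2 and Apom 0.214, while Apoa1 was 0.634 from Apoc3 and 0.742 from Apoa4. These distances describe 6 libraries that share their injury and transcript length trends.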

How the data were processed

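RNA of mouse kidney cortex was sequenced in 6 libraries, 3 of each group, from a stranded mRNA library kit, per the labels' protocols. The authors deposited raw read counts, whole numbers for each gene in each sample. Per the submitters' processing notes, GRCm38, STAR 2.7.10a, featureCounts and Subread were used, each in a role not given. The sources used here state no annotation, strand setting or rule for multimapping reads, and overlapping genes and near-identical copies may share reads. Total counts per library ranged from 10865860 to 14350425, and 258 of the 26971 features carried an identifier in place of a symbol.

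A robust quasi-likelihood test of edgeR 4.0.16 (R 4.3.3) was fitted to the deposited counts with TMM factors. Its filterByExpr filter, set to a count of 10 and a total of 15, kept 14274 genes. P-values were adjusted over all tested genes by the Benjamini-Hochberg method and called under 0.05. Log2 CPM used a prior count of 2. Intervals and limits from a count of 0 (3 counts) cover counting error only. Lengths and coordinates came from GENCODE M21, which covered 95.5% of tested genes, and promoters from RefSeq (GRCm38.p6). Length and GC trends were removed per library with mgcv 1.9.3 (basis 6), as an offset. Counts of replicates of 1 group differed beyond sampling noise in every pair (chi-square over its degrees of freedom, 18.8 to 193.4).

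Deviations from the group means correlated at 0.724, 0.342 and 0.429 between libraries numbered 1, 2 and 3, each above 0.1, and on that ground alone, not from any label, libraries of equal number were treated as pairs. Congested replicate 3 also correlated with IRI replicate 2, at 0.401, and congested replicate 2 with IRI replicate 3, at 0.249. The correlations thus set number 1 apart but do not tell numbers 2 and 3 apart. The pairing was taken from the same data as the fits with the block, so their smaller standard errors depend on it. With the number as a block the biological coefficient of variation was 0.211, against 0.337 without it.

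The apolipoprotein genes, the other lists and the tests were chosen with earlier results of these data known, and the motif letters after the promoters were seen. All 10 genes are named, as are the 2 genes with the smallest unadjusted p in each list, the 2 most abundant genes of the marker lists and the 3 nearest patterns of each tested gene, except for a few genes not reported here. Other genes were named after their values were seen. Alternatives were other scalings and filters, DESeq2 1.42.0, limma-voom 3.58.1, fits with the replicate block, the length and GC offset, and left-out libraries. The script was tested on simulated counts before use.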

Additional observations from a re-analysis of the deposited data

How the results depend on the processing

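For congested against IRI kidneys, edgeR called 0 genes at an adjusted p under 0.05 (285 at an unadjusted p under 0.05), and the count stayed 0 in every alternative run other than those named here. With the replicate block, which follows the pairing by number, edgeR also called 0 and DESeq2 called 10. Leaving out 1 number from both groups, with the block, gave 12 calls without number 1, 9 without number 2 and 5457 without number 3, an alternative added after the data were seen. The 5457 were 37.8% of the genes tested and held 7 of the 9 tested apolipoprotein genes. That fit has 1 residual degree of freedom, and the cause was not tested. With all libraries, Apoc3 was the one apolipoprotein gene whose call changed with the block, in DESeq2. For replicate number, 1144 calls became 3231 with no filter on low counts, 1854 with DESeq2 and 2100 with the length and GC trend removed, and 854 to 7841 with 1 library left out, where 7841 came without congested replicate 3 and 5207 without IRI replicate 3. The cause was not tested. Apoa4, Apoa1 and Apoc3 were called for replicate number in 15 of 15 alternatives, and Apob in 9 of 15. Scaling by total counts alone moved the median log2 fold change of all genes to 0.10 and left 7 of the 9 apolipoprotein genes below 0, against 8. Depth limits Apod, Apoc1, Apoa2 and Apoa1, whose counts reached 20, 22, 75 and 80 at most.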
